A study of Homo sapiens with 6 samples.

Results

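The 40 genes described here are the enzymes, transporters and regulators that carry glucose to lactate or pyruvate (26 genes) and genes of the hypoxia response (14 genes). They were given as a list of gene symbols, and each of the 40 symbols matched 1 Ensembl identifier among the 61541 genes of the deposited table. Their expression was measured by RNA-seq in 3 control libraries and in 3 libraries of cells that had received 100 μM sedanolide 24 h earlier, all from HepG2 cells that express luciferases. HepG2 is a human hepatoblastoma line, and sedanolide is a phthalide found in celery. Both groups carried the same reporters on a mouse artificial chromosome vector, the green luciferase ELuc behind a thymidine kinase promoter and the red luciferase SLR3 behind repeats of the antioxidant response element (ARE). Neither the labels nor the methods state whether the cells descend from 1 clone, what the control cells received, or that the replicates came from separate cultures, so p-values measure the spread between these libraries. Neither names a low-oxygen condition or another time point.

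Glycolysis splits glucose into pyruvate in the cytosol, and lactate dehydrogenase turns pyruvate into lactate when it is not passed to the mitochondria. Under low oxygen, the prolyl hydroxylases that mark HIF-1α and HIF-2α for degradation lose their substrate, and the stabilized factors bind the core sequences ACGTG and GCGTG, called hypoxia response elements, near genes of glycolysis, blood vessel growth, pH control and mitophagy. Hepatoblastoma and other tumor cells often run glycolysis at a high rate in the presence of oxygen, and they favor isoenzymes that differ from those of the adult liver.

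Promoter sequences of 4 members are shown because 3 of them (ADM, CA9 and P4HA1) lay among the hypoxia targets farthest from no change and 1 (LDHA) is a well-known HIF target that lay close to no change. Each is the 120 bases before the start listed by RefSeq for GRCh38.p14, read 5′ to 3′ on the strand of the gene, and capitals mark ACGTG or GCGTG on either strand. ADM lies at chr11:10304953-10305072 on the plus strand, CA9 at chr9:35673808-35673927 on the plus strand, P4HA1 at chr10:73096867-73096986 on the minus strand, and LDHA, at the first of its 2 listed starts, at chr11:18394443-18394562 on the plus strand.
ADM: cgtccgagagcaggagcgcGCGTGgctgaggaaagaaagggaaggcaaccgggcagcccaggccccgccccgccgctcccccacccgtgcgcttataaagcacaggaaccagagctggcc
CA9: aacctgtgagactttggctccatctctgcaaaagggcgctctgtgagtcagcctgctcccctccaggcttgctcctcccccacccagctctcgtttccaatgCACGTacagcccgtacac
P4HA1: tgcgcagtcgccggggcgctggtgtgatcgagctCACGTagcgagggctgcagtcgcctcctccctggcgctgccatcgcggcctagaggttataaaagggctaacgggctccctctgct
LDHA: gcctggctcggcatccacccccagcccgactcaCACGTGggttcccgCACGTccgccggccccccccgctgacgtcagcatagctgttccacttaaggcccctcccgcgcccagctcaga

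All 4 sequences, picked as described above, held at least 1 such core. Of the 40 members, 35 matched the RefSeq promoter table, with 64 windows that run from 250 bases before to 50 bases after a listed start. ACGTG or GCGTG stood on either strand in 43 of the 64 windows (67.2%) and in 48.4% of the 35116 windows of all genes. ACGTG alone, in which the palindrome CACGTG counts on both strands, was found in 37.5% of the members' windows and 21.4% of all windows. TGACNNNGC, the core of the ARE that the reporter carries, stood in 9.4% of the members' windows and in 13.3% of all windows. These matches describe letters in a window and no binding was measured.

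The libraries held 16420258 to 22940963 expected counts in control cells and 19027265 to 26714853 in sedanolide-treated cells. On component 1 of a principal component analysis, computed without the genes listed here (13978 genes, 56% of the variance), the libraries fell into 2 sets of 3 that crossed the treatment. The first set held control 1, control 2 and sedanolide 3, in which mitochondrial genes took 1.43% to 2.15% of the counts, and the second set held control 3, sedanolide 1 and sedanolide 2, with 4.24% to 5.22%. All 8 markers of hepatocytes and HepG2 cells were detected at 1 CPM or more, with a summed level, mostly of AFP and APOB, of 26675 to 40968 CPM in control and 19731 to 35049 CPM in sedanolide libraries. The log2 fold change was negative in 7 of the 8 (median -0.33). ALB (-0.43), TTR (-0.53) and FGB (-0.45) lay below every control in all sedanolide libraries, as did 9.66% of all genes tested. Their adjusted p-values from edgeR were from 0.133 to 0.241. Of 13 markers of other cell types, 5 reached 1 CPM, VWF and DCN were at 0, and their summed level was 938 to 1422 CPM in control and 596 to 853 CPM in sedanolide libraries. Nearly all of this sum was LYZ (804 to 1319 CPM in control and 467 to 756 CPM in sedanolide libraries). KRT19 was also below every control in all sedanolide libraries, and CD68 was above every control, as were 8.69% of all genes tested. The part of these levels in the results below was not tested, and in bulk RNA fewer cells of a type and less RNA per cell cannot be told apart.

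To determine whether sedanolide changed the mRNA of glycolysis and hypoxia genes, the 3 sedanolide libraries were compared with the 3 control libraries with edgeR's quasi-likelihood test, in which a gene was called at a Benjamini-Hochberg adjusted p of 0.05 and a fold change of 1.5. None of the 40 genes was called. Of these, 38 had enough counts to be tested, and the background was 95 of 14104 genes and reporters called (0.674%). At an unadjusted p-value under 0.05, 3 members were higher in sedanolide-treated cells (ADM, HK1 and PFKP, against a background of 5.35%) and 3 were lower (P4HA1, CA9 and PKLR, background 6.57%), which is 15.8% of the members tested against 11.9% of all genes. No member was called with limma-voom either, whereas DESeq2 called 2 members, ADM and HK1 (background 2.31%).

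The fold changes were small and lay on both sides of no change. The log2 fold change was positive in 20 members and negative in 18, with a median of 0.0085, against 0.0057 over all genes tested. In 33 of the 38 (86.8%) the fitted change was under 1.5-fold, as it was in 91.1% of all genes, and HK1, PFKP, ADM, CA9 and P4HA1 were the exceptions. The 3 sedanolide libraries did not overlap the 3 control libraries in 5 members (13.2%, background 18.3%), of which HK1 and ADM were higher (background 8.69%) and PGK1, PKLR and PFKFB4 were lower (background 9.66%). Together the 40 genes took 25789 to 31309 CPM in control and 28067 to 31811 CPM in sedanolide libraries, and most of this came from the genes of glycolysis and its control (23710 to 30180 CPM in the 6 libraries).

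**Figure D1:**
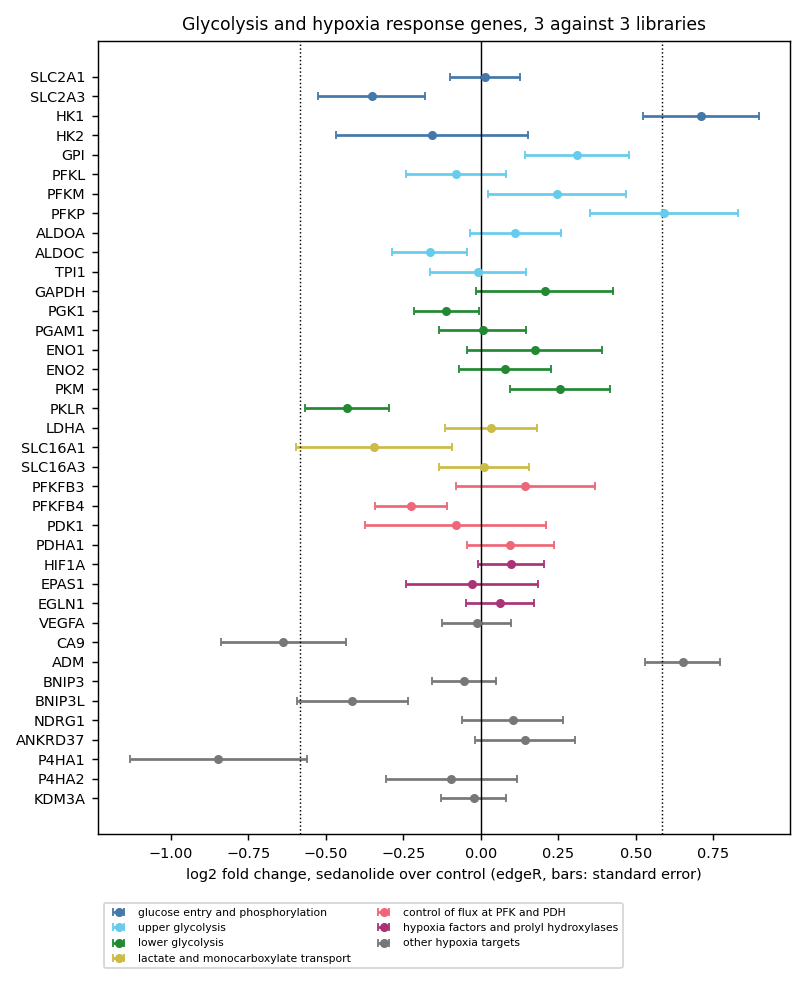
Log2 fold change of sedanolide over control (horizontal axis) for the 38 members tested (vertical axis), colored by role, with bars for the standard error from edgeR and dotted lines at a 1.5-fold change. Most genes sit between the dotted lines, with HK1, PFKP and ADM beyond the right line and CA9 and P4HA1 beyond the left line.

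Glucose enters the cell through facilitative transporters and is trapped by hexokinases. SLC2A1 encodes GLUT1, the transporter of most dividing cells, and its normalized expression was 2671, 2342 and 2488 CPM in controls 1 to 3 and 2559, 2473 and 2534 CPM in sedanolide 1 to 3. The groups overlapped fully, and the log2 fold change was 0.01 with a 95% confidence interval from -0.25 to 0.28. SLC2A3 encodes GLUT3, a transporter of high affinity, and its values were 1985, 2456 and 1825 CPM in control and 1402, 1589 and 1919 CPM in sedanolide libraries, with a log2 fold change of -0.35, a standard error of 0.172 and an adjusted p of 0.479. Only sedanolide 3 among the treated libraries reached the range of the controls. SLC2A14, a near-identical neighbor with which reads of SLC2A3 can be exchanged, differed by -0.71 on the log2 scale (adjusted p = 0.296).

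HK1 encodes the hexokinase found in most tissues (chromosome 10 of GRCh38, 69269984 to 69401884, plus strand). Its normalized expression was 11.5, 10.8 and 13.4 CPM in controls 1 to 3 and 23.8, 19.2 and 15.5 CPM in sedanolide 1 to 3, or 11.9 ± 1.32 CPM and 19.5 ± 4.18 CPM (SD, n = 3). All 3 sedanolide libraries lay above the controls, with sedanolide 3 closest to them. The log2 fold change was 0.71 (standard error 0.187, 95% confidence interval 0.27 to 1.15), the adjusted p was 0.202, and HK1 was therefore not called. HK2, the hexokinase that is typical of tumor cells and of insulin-sensitive tissue, was at 246, 278 and 172 CPM in control and 137, 184 and 302 CPM in sedanolide libraries. Both its highest and its lowest value were in sedanolide libraries, and its log2 fold change of -0.16 had a standard error of 0.310.

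Most steps of upper glycolysis differed little between the groups. Fructose 6-phosphate is made by GPI, phosphorylated by the phosphofructokinases PFKL, PFKM and PFKP, and split by the aldolases ALDOA and ALDOC, after which TPI1 interconverts the triose phosphates. Of these 7 genes, only PFKP had an unadjusted p-value under 0.05. PFKP, the platelet-type phosphofructokinase (chromosome 10, 3066333 to 3137718), was at 4.97, 4.02 and 7.18 CPM in control and 9.03, 8.42 and 6.86 CPM in sedanolide libraries. Control 3 lay above sedanolide 3, so the groups overlapped, and the log2 fold change was 0.59 (standard error 0.238, 95% confidence interval 0.03 to 1.15, adjusted p = 0.390). The log2 fold changes of the other genes of this group lay between -0.17 (ALDOC) and 0.31 (GPI), with -0.08 for PFKL, the liver-type enzyme. PFKM shares 516 exon bases with SENP1, which runs on the other strand and had 170.8% of its counts, and the setting of the strand in the authors' counting is not stated.

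Lower glycolysis runs from GAPDH, which oxidizes glyceraldehyde 3-phosphate, through PGK1, PGAM1 and the enolases ENO1 and ENO2 to the pyruvate kinases PKM and PKLR. PKLR, the pyruvate kinase of liver and red cells (chromosome 1, 155289293 to 155301438), was at 64.6, 55.2 and 59.4 CPM in control and 48.2, 46.5 and 38.1 CPM in sedanolide libraries. All sedanolide libraries were below all control libraries, and the log2 fold change was -0.43 with a standard error of 0.135 (adjusted p = 0.271). PKLR shares 556 exon bases with HCN3, which runs on the other strand and had 8.91% of its counts. PKM, which gives the muscle and tumor forms of the enzyme, was at 1597, 1218 and 1635 CPM in control and 1893, 1885 and 1533 CPM in sedanolide libraries, so the log2 fold change was 0.26 with a standard error of 0.161 (adjusted p = 0.587). GAPDH, often used as a reference gene, ranged from 4913 to 7870 CPM in control and from 5958 to 8719 CPM in sedanolide libraries. Its log2 fold change was 0.21 (standard error 0.221), so its spread within each group was larger than the difference between them. PGK1 was below every control in all sedanolide libraries (814 to 861 CPM against 753 to 812 CPM), but by a log2 fold change of only -0.11 (95% confidence interval -0.36 to 0.14).

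Lactate is formed from pyruvate by lactate dehydrogenase, whose subunits are encoded by LDHA and LDHB, and leaves the cell through the monocarboxylate transporters SLC16A1 (MCT1) and SLC16A3 (MCT4). LDHA was at 2795, 2541 and 3166 CPM in control and 2857, 3289 and 2559 CPM in sedanolide libraries. The groups overlapped over nearly their whole range, and the log2 fold change was 0.03 with a 95% confidence interval from -0.31 to 0.38. LDHB, in contrast, was nearly absent from these cells in both groups, with at most 5 rounded counts in a library, and did not pass the count filter. An annotated readthrough gene shares 997 exon bases with LDHB on the same strand, so even these counts are uncertain. SLC16A3 had a log2 fold change of 0.01 (95% confidence interval -0.33 to 0.35), and it shares 482 exon bases with CSNK1D, which runs on the other strand and had 20.6% of its counts. SLC16A1 was at 386, 467 and 292 CPM in control and 219, 291 and 391 CPM in sedanolide libraries, and with sedanolide 3 inside the range of the controls its log2 fold change of -0.35 had a standard error of 0.252.

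None of the genes that set the flux at phosphofructokinase and pyruvate dehydrogenase had an unadjusted p-value under 0.05 in edgeR. PFKFB3 and PFKFB4 make fructose 2,6-bisphosphate, the activator of phosphofructokinase, PDK1 switches off pyruvate dehydrogenase, and PDHA1 is a subunit of that enzyme. PFKFB4 was at 99.5, 88.0 and 104.0 CPM in control and 87.4, 82.6 and 79.5 CPM in sedanolide libraries, so that all treated libraries were below the controls with a log2 fold change at -0.22 (standard error 0.116, adjusted p = 0.499). The log2 fold changes of PFKFB3 (0.14, standard error 0.224), PDK1 (-0.08, standard error 0.291) and PDHA1 (0.10, standard error 0.141) were smaller than their standard errors.

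The mRNA of the hypoxia-inducible factors and of their prolyl hydroxylases was examined next, although the factors are known to be set mainly at the level of protein stability, which RNA-seq does not measure. HIF1A, which encodes HIF-1α (chromosome 14, 61695513 to 61748259), was at 79.2, 85.5 and 84.5 CPM in control and 83.0, 90.7 and 92.9 CPM in sedanolide libraries, which gave a log2 fold change of 0.10 with a 95% confidence interval from -0.16 to 0.35. EPAS1, which encodes HIF-2α, ranged from 130 to 187 CPM in control and from 129 to 202 CPM in sedanolide libraries, and EGLN1, the main oxygen-sensing prolyl hydroxylase, from 143 to 155 CPM and from 146 to 162 CPM. Their log2 fold changes were -0.03 and 0.06. EGLN3, a prolyl hydroxylase that is itself a HIF target, had 1 count in control 1 and 0 in the other libraries, which allows at most 3 counts in each of them by counting error alone.

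Among the other hypoxia targets, ADM stood highest and P4HA1 lowest, while most of the familiar ones stayed close to no change. ADM encodes adrenomedullin, a secreted peptide that widens blood vessels (chromosome 11, 10305073 to 10307397, plus strand). Its normalized expression was 19.9, 21.1 and 22.4 CPM in controls 1 to 3 and 36.5, 30.8 and 32.2 CPM in sedanolide 1 to 3, or 21.1 ± 1.26 CPM and 33.1 ± 2.94 CPM (SD, n = 3). The groups were well apart, and the log2 fold change was 0.65 (95% confidence interval 0.36 to 0.94) with a standard error of 0.122, but the adjusted p of 0.0800 was above the threshold. Across 16 other settings the log2 fold change of ADM stayed between 0.52 and 0.70. Its adjusted p ranged over these settings from 0.00034 with DESeq2 to 0.700, and lay between 0.0931 and 0.373 when single libraries were left out of the edgeR fit.

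P4HA1 encodes the catalytic subunit of a collagen prolyl hydroxylase of the endoplasmic reticulum (chromosome 10, 73007217 to 73096974, minus strand). It was at 321, 405 and 233 CPM in controls 1 to 3 and 123, 172 and 238 CPM in sedanolide 1 to 3, or 320 ± 85.6 CPM and 178 ± 57.9 CPM (SD, n = 3). Sedanolide 3 lay just above control 3, so the groups overlapped, and the log2 fold change of -0.85 came with a standard error of 0.287 (adjusted p = 0.308). CA9 encodes carbonic anhydrase IX, a membrane enzyme of pH control that is widely used as a marker of hypoxia (chromosome 9, 35673928 to 35681159, plus strand). It was at 22.2, 15.0 and 21.0 CPM in control and 15.1, 11.2 and 11.1 CPM in sedanolide libraries, which gave a log2 fold change of -0.64 with a standard error of 0.202 (adjusted p = 0.280), and the highest sedanolide library just exceeded the lowest control. CA9 shares 571 exon bases with ARHGEF39, which runs on the other strand and had 60.3% of its counts.

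VEGFA, the main growth factor of blood vessels, was at 178, 170 and 178 CPM in control and 183, 158 and 179 CPM in sedanolide libraries, or -0.01 as log2 fold change (95% confidence interval -0.28 to 0.25). BNIP3, a receptor for mitophagy, had a log2 fold change of -0.05 (standard error 0.102) and KDM3A, a histone demethylase, of -0.02 (standard error 0.105). BNIP3L, the close relative of BNIP3, was at 109, 125 and 90.7 CPM in control and 70.9, 74.7 and 98.1 CPM in sedanolide libraries, or -0.41 as log2 fold change (standard error 0.178, adjusted p = 0.425), and here too only sedanolide 3 reached the range of the controls. NDRG1, ANKRD37 and P4HA2 had log2 fold changes of 0.10, 0.14 and -0.10, each smaller than its standard error. ANKRD37 shares 909 exon bases with UFSP2, which runs on the other strand and had 453.5% of its counts.

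Levels of different genes were compared on the deposited TPM scale, which takes account of transcript length. GAPDH was the most abundant member at 8564 ± 1391 TPM in control and 9145 ± 1040 TPM in sedanolide-treated cells (SD, n = 3). SLC2A1, ALDOA, ENO1 and LDHA followed with control means from 3179 to 3875 TPM, and neighbors in this order did not differ beyond their spread. PFKP (3.09 ± 0.735 TPM in control) and HK1 (4.95 ± 0.243 TPM in control) were the members with the lowest levels among the 38 in the TPM table, and both belong to the 3 members with a positive difference at an unadjusted p-value under 0.05. PFKL made up 90.3% ± 0.084 of the summed TPM of the phosphofructokinases in control and 87.5% ± 2.01 in sedanolide-treated cells, and PFKP 2.16% ± 0.454 and 3.42% ± 0.129 (SD, n = 3).

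In 4 of the 15 isoenzyme shares examined, the 3 sedanolide libraries did not overlap the 3 control libraries, which gives an exact two-sided permutation p of 0.1, the smallest that 3 against 3 libraries allow. These were the shares of PFKL and PFKP, of PKM against PKLR (96.8% ± 0.365 in control and 98.0% ± 0.030 in sedanolide-treated cells) and of P4HA1 against P4HA2 (86.4% ± 1.10 and 78.9% ± 2.88, SD, n = 3). The shares of PFKL and PFKP are parts of the same sum and so are not separate results. No background was computed for such shares, while the groups did not overlap in 18.3% of the single genes tested. Adjusted over the 15 shares, the lowest p was 0.375 (exact permutation test), and a design of this size could not reach 0.05. The share of HK1 against HK2 was 6.25%, 5.27% and 10.3% in control and 20.7%, 13.6% and 6.65% in sedanolide libraries, with sedanolide 3 inside the range of the controls.

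**Figure D2:**
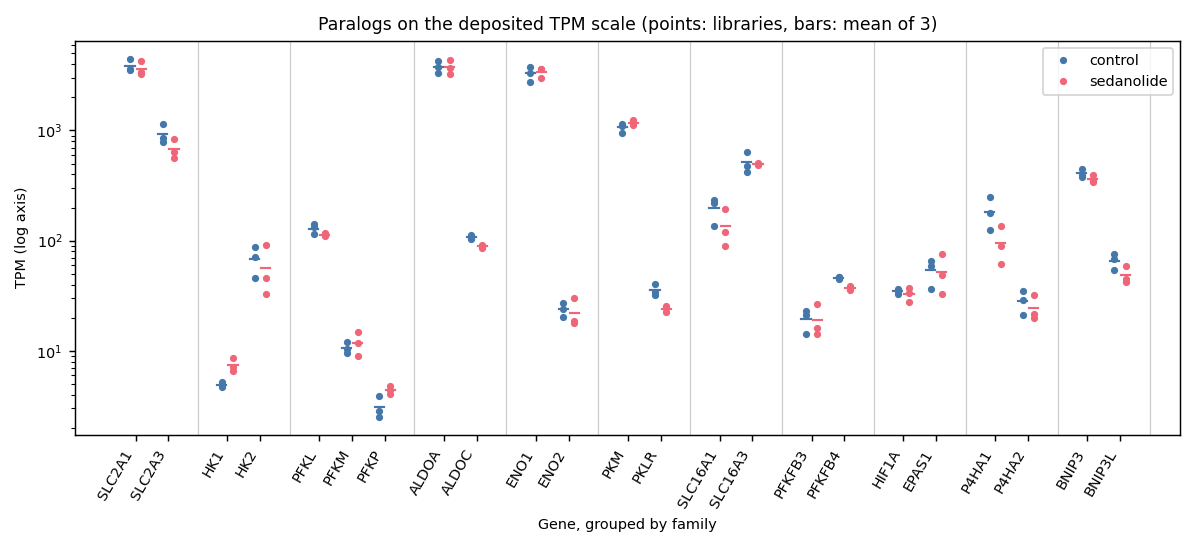
TPM on a log axis for members that have a paralog among the members in the TPM table, with points for the 6 libraries and bars for the mean of 3. Families are separated by vertical lines. HK1 and PFKP sit lowest of these genes in both groups, while SLC2A1, ALDOA and ENO1 are the 3 highest in control cells.

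The position of a library on component 1 went with many members, at a share near that of all genes tested. In 19 of the 38 members (50%) the 3 libraries of the second set were all above or all below the 3 libraries of the first set, against 44.1% of all genes tested (23.1% above and 21% below). All 9 members that were higher in the second set were genes of glycolysis and its control, namely GPI, PFKM, PFKP, GAPDH, PGAM1, ENO1, PKM, LDHA and PDHA1. The 10 that were lower in the second set were SLC2A3, HK2, SLC16A1, PFKFB3, PDK1, EPAS1, BNIP3L, NDRG1, P4HA1 and P4HA2. These include 5 of the 25 members tested of glycolysis and its control and 5 of the 13 hypoxia members tested. The second set differed from the first by a log2 difference of -0.77 in HK2, -0.71 in PDK1 and -0.67 in P4HA1, and of 0.46 in GAPDH, 0.50 in ENO1 and 0.53 in PFKM. The sets were read from these data, so this is a description without a test.

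**Figure D3:**
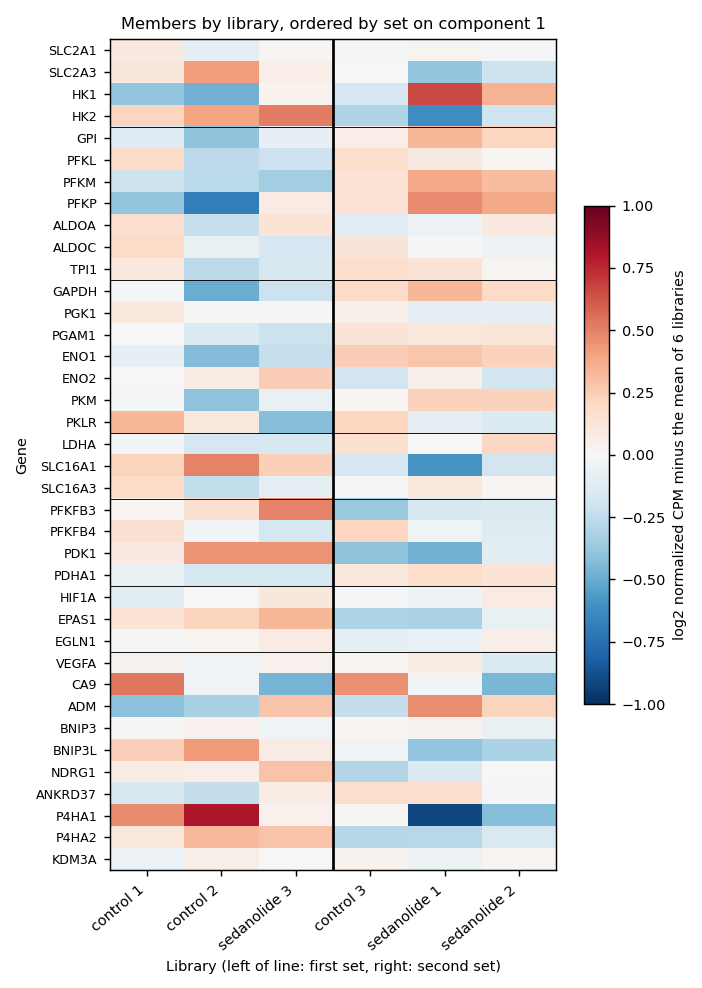
Log2 normalized CPM minus the mean of the 6 libraries (color, from blue for low to red for high) for the 38 members tested (rows, grouped by role) in each library (columns), with the first set left and the second set right of the vertical line. HK2, PDK1 and P4HA1 are lower and GAPDH, ENO1 and PFKM are higher right of the line, in control 3 as in the treated libraries.

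The first set held mostly control and the second mostly sedanolide libraries, so a difference between the sets also enters the main fold changes. Since each set held libraries of both conditions, the treatment was also examined inside each set. ADM differed by 0.65 on the log2 scale in the first set and by 0.58 in the second, HK1 by 0.47 and 0.67, and PFKP by 0.61 and 0.28. P4HA1 differed by -0.60 and -0.68, CA9 by -0.70 and -0.69, and PKLR by -0.65 and -0.33. These 6 genes were picked for their difference over the same 6 libraries, so the direction inside the sets is given as a description. Of the members that passed the count filter, the direction in the first and the second set was the same in 32 of 38 (84.2%) and in 70.4% of all genes tested, with a single library on one side of each within-set difference. With the set as a term, edgeR called ADM (log2 fold change 0.62, adjusted p = 0.0158) and P4HA1 (-0.63, adjusted p = 0.0445), where the background was 381 genes called (2.7%). HK1 (0.57, adjusted p = 0.0442) and PKLR (-0.49, adjusted p = 0.0493) passed the threshold on the adjusted p but not that on the fold change. The set was read from these same libraries, so the p-values of this fit are also given as a description.

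**Figure D4:**
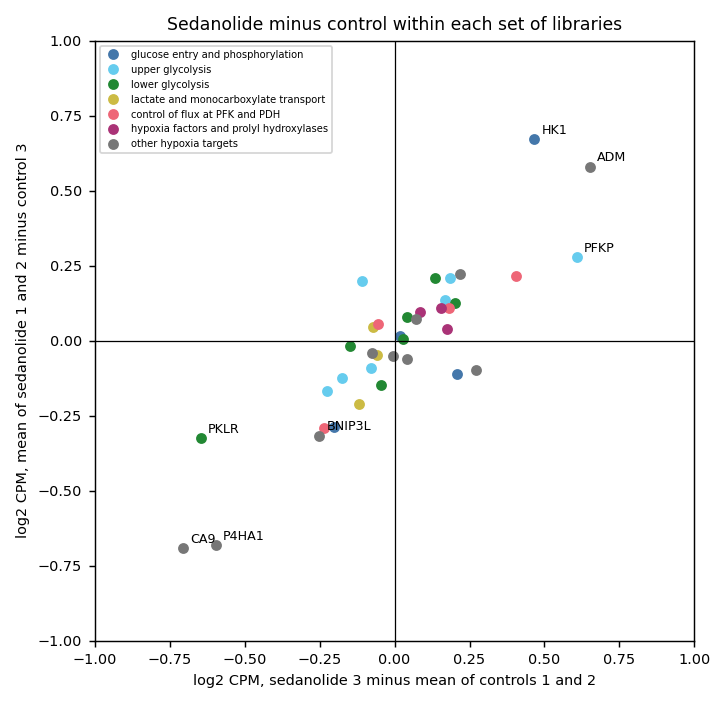
Difference in log2 normalized CPM between sedanolide and control for each of the 38 members (points, colored by role), within the first set (horizontal axis, sedanolide 3 minus the mean of controls 1 and 2) and within the second set (vertical axis, mean of sedanolide 1 and 2 minus control 3). ADM, HK1 and PFKP lie in the upper right, P4HA1, CA9 and PKLR in the lower left, and most other members near the origin.

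Beyond the members, 50 other genes of glucose and pyruvate metabolism were examined, in a list written with earlier results of these data known. Of the 50, 40 had enough counts. Of these, HKDC1 and GCKR rose and LDHD fell past both thresholds (background 0.362% higher and 0.312% lower), and the median log2 fold change of the list was -0.03. Since the list was written that way, its calls beside the background are a description without a test. HKDC1 encodes a hexokinase domain protein and lies next to HK1 on the same strand of chromosome 10 (69220332 to 69267552). It was at 15.9, 15.4 and 18.0 CPM in control and 37.3, 36.3 and 35.8 CPM in sedanolide libraries, which gave a log2 fold change of 1.15 with a standard error of 0.117 (adjusted p = 0.0172). Its groups were far apart in both sets, with sedanolide 3 near the other treated libraries. HKDC1 and HK1 are similar in sequence, and RSEM divides reads that match both. In a comparison chosen after seeing the data, HKDC1 made up 11.2% ± 4.26 of the summed TPM of HK1, HK2 and HKDC1 in control and 22.2% ± 7.34 in sedanolide-treated cells (SD, n = 3), and the groups overlapped, with 14.3% in sedanolide 3 and 16.1% in control 3.

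GCKR, which encodes a regulatory protein of glucose metabolism in liver cells, was at 4.91, 5.85 and 4.63 CPM in control and 13.1, 13.1 and 12.3 CPM in sedanolide libraries (log2 fold change 1.32, standard error 0.143, adjusted p = 0.0172). LDHD, the mitochondrial enzyme that oxidizes D-lactate, was at 8.78, 7.45 and 6.90 CPM in control and 3.66, 4.06 and 3.21 CPM in sedanolide libraries (log2 fold change -1.08, standard error 0.169, adjusted p = 0.0483). SLC2A2, which encodes GLUT2, the glucose transporter of hepatocytes, was at 206, 255 and 226 CPM in control and 135, 149 and 136 CPM in sedanolide libraries. Its groups did not overlap, and its log2 fold change of -0.71 (standard error 0.125) had an adjusted p of 0.0689 in edgeR. SLC2A2 was called in 2 of the 16 other settings, but never when a single library was left out. PYGL, the glycogen phosphorylase of liver, differed by -0.26 on the log2 scale (adjusted p = 0.364).

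Whether these 3 genes passed the threshold depended on which libraries entered the fit, while their log2 fold changes moved little. Leaving out 1 library at a time, HKDC1 was called without control 3 (adjusted p = 0.0388) and without sedanolide 3 (0.0149) but not without control 1 (0.156), control 2 (0.0952), sedanolide 1 (0.0689) or sedanolide 2 (0.151). GCKR was called without sedanolide 3 (0.0164) but not without control 1 (0.189), control 2 (0.0799), control 3 (0.0611), sedanolide 1 (0.0804) or sedanolide 2 (0.172). LDHD was called in none of these fits, with adjusted p-values of 0.244 and 0.195 without controls 1 and 2, 0.120 without control 3, and 0.180, 0.227 and 0.0682 without sedanolide 1, 2 and 3. The log2 fold changes in these fits stayed between 1.10 and 1.22 for HKDC1, between 1.25 and 1.43 for GCKR, and between -1.18 and -0.99 for LDHD, with an unadjusted p-value under 0.05 in all 6 fits.

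**Figure D5:**
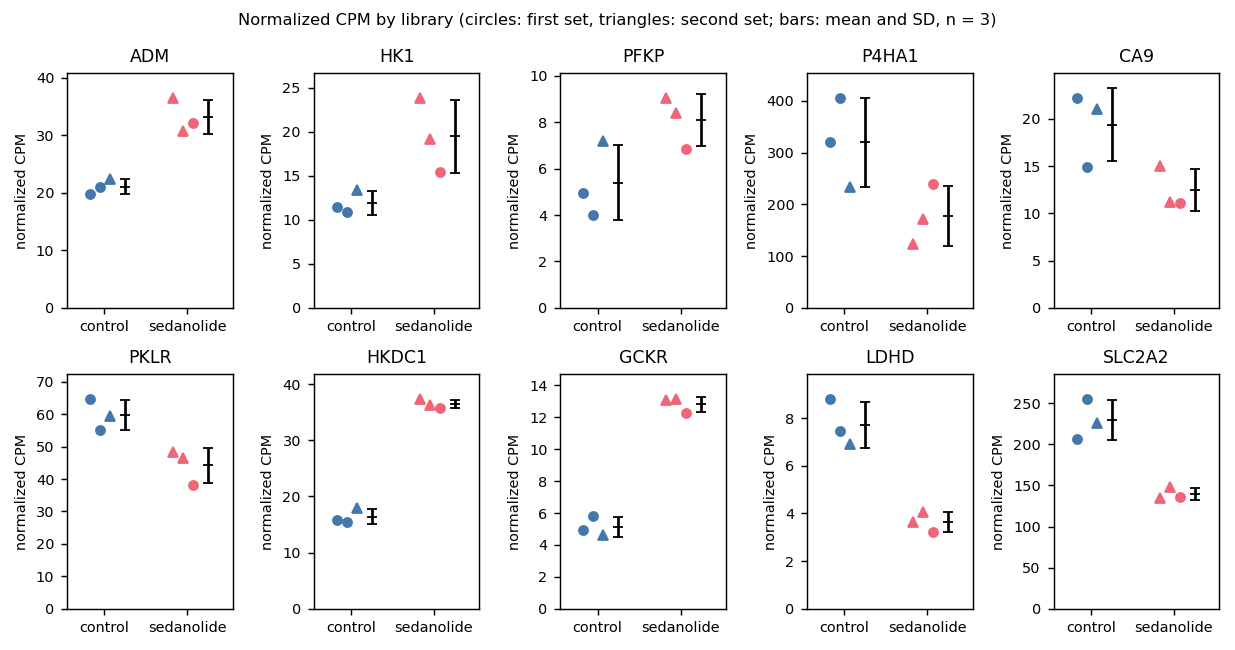
Normalized CPM (vertical axis, starting at 0) in each control (blue) and sedanolide (red) library for 6 members and 4 other glucose genes, with circles for the first set, triangles for the second set, and bars for the mean and SD (n = 3). In ADM, HK1, HKDC1 and GCKR all sedanolide points are above the control points, in PKLR, LDHD and SLC2A2 all are below, and in PFKP, P4HA1 and CA9 the groups overlap.

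A second list, likewise written with earlier results known, held 40 other genes of the hypoxia response and of oxygen sensing. Of these, 35 had enough counts. None was called by edgeR, DESeq2 or limma-voom, 1 was higher and 4 lower with an unadjusted p below 0.05 (background 5.35% and 6.57%), 1 lay above and 6 below all controls in every sedanolide library (background 8.69% and 9.66%), and the median log2 fold change was -0.10. The 1 that was higher was FAM162A (109 ± 16.3 CPM in control and 140 ± 14.3 CPM in sedanolide-treated cells, log2 fold change 0.36), a mitochondrial protein gene. Those that were lower were ANGPTL4, an inhibitor of lipoprotein lipase (-0.62), CCNG2, an unconventional cyclin (-0.58), CITED2, a negative regulator of HIF-1 (-0.32), and TMEM45A (-0.31). Their adjusted p-values from edgeR were between 0.278 and 0.418.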

How the data were processed

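RNA-seq libraries of control and sedanolide-treated cells (n = 3 each, grouped by the labels) were analyzed. The authors captured mRNA, prepared directional libraries, and took trimmed reads (Trimmomatic) through STAR, against GRCh38, and RSEM. Versions and the annotation release are not given in the sources used here. The deposited expected counts, not normalized, cover 61541 genes and 2 reporters. Also deposited were log2(TPM + 1) values for 11006 rows, whose TPM sum to 988500.3 to 994763.8 per library and whose filter is not stated. Positions are from GENCODE 44, promoters from RefSeq GRCh38.p14.

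Expected counts were rounded and, after filterByExpr and TMM normalization, all genes entered one robust quasi-likelihood fit (edgeR 4.0.16, R 4.3.3). Calls needed FDR 0.05 and a 1.5-fold change. The biological coefficient of variation was 0.199. Intervals are at 95%. A count of 0 allows up to 3 counts. Isoenzyme shares were tested by exact two-sided permutation. Alternatives were DESeq2 1.42.0, limma-voom (limma 3.58.1), library size only, median-of-ratios factors, a 0.5 CPM minimum, all genes with 1 count, the replicate number as a block, the set on component 1 as a term, each library left out, no fold change cutoff, and the TPM table with limma and a pseudocount of 1 or 0.1.

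The members and lists were chosen with earlier results of these data known. Named genes are all members and, of the other lists, genes called plus, where fewer than 6 were called, the 3 largest and 3 smallest log2 fold changes at an unadjusted p-value under 0.05. A gene of the other glucose list is not reported here by name, and it stays in the counts.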

Additional observations from a re-analysis of the deposited data

How the results depend on the processing

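The fold changes of members are small against the spread between 3 libraries, so most signs near 0 depend on the setting. Without control 1 or sedanolide 2 no gene at all was called. LDHB and EGLN3 did not pass the count filter and were tested only in the fit of all genes with 1 count. Over all genes, 51 were called higher and 44 lower. These numbers became 130 and 196 with DESeq2, 79 and 79 with all genes that had 1 count, 151 and 230 with the set on component 1 as a term, 33 and 28 with log2(TPM + 1) and 33 higher with log2(TPM + 0.1), and lay between 0 and 66 higher and 0 and 70 lower when single libraries were left out. The cause of these differences was not tested.

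No member was called in the main analysis, while 2 were higher with DESeq2 and 1 was higher and 1 lower with the set as a term. At an unadjusted p-value under 0.05 there were 3 higher and 3 lower members, which became 5 and 5 with the set as a term, and 5 lower with library size only and in both TPM fits. The share of all genes at this threshold moved too, from 11.9% to 19.5% with the set as a term. It was 12.2% with library size only, and 11.5% and 11.6% in the TPM fits with a pseudocount of 1 and 0.1. Leaving out single libraries gave 2 to 5 higher and 1 to 6 lower (1 lower without control 1 or sedanolide 2, 5 higher and 6 lower without sedanolide 3), where the share of all genes was 7.35% without control 1, 6.27% without sedanolide 2 and 23.0% without sedanolide 3. Of the other glucose genes, 2 were called higher and 1 lower. The lower number was 2 with DESeq2 or the set as a term and 0 with a filter of 0.5 CPM, and single libraries left out gave 0 to 2 higher and 0 lower. Taking away the fold change cutoff added no call among the members.

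With the replicate number as a block (replicate block), 0 genes were called higher and 0 lower, 0 of the other glucose genes among them in either direction, while 772 genes had an unadjusted p-value under 0.05. The deviations of libraries with the same number from their group means correlated at -0.133, -0.295 and -0.73. These values show no pairing by number, but deviations from means of 3 libraries cannot exclude it. Neither the labels nor the methods state whether libraries with the same number were handled together. HKDC1 and GCKR both had an adjusted p of 0.424 and LDHD of 0.492 in the blocked fit.

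The deposited TPM table moved the median log2 fold change of all genes by -0.10, and the members' median to -0.12. In it the sign turned to -0.10 for SLC2A1, -0.0079 for ALDOA, -0.11 for PGAM1 and PDHA1, -0.18 for LDHA, -0.034 for SLC16A3, -0.13 for EGLN1 and -0.084 for NDRG1 with either pseudocount, and with 1 and 0.1 to -0.12 and -0.13 for ENO2, to -0.057 and -0.060 for PFKFB3 and to -0.083 and -0.086 for HIF1A. With library size only, SLC2A1 (-0.030), PGAM1 (-0.038), LDHA (-0.010) and SLC16A3 (-0.032) turned. With all genes that had 1 count, TPI1 was at 0.0057 and VEGFA at 0.0010. With the set as a term, HK2 was at 0.057, PGAM1 at -0.085, LDHA at -0.052, SLC16A3 at -0.020, PDK1 at 0.15, PDHA1 at -0.00077, EPAS1 at 0.14 and P4HA2 at 0.071. The share of HIF1A against EPAS1 differed by 2.24 points from expected counts per kb and by -0.26 from TPM.

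Without single libraries, the signs of 15 members turned, with log2 fold changes from -0.033 to 0.051 for SLC2A1, -0.53 to 0.064 for HK2, -0.21 to 0.0036 for PFKL, -0.13 to 0.079 for TPI1, -0.061 to 0.11 for PGAM1, -0.031 to 0.17 for ENO2, -0.075 to 0.12 for LDHA, -0.10 to 0.11 for SLC16A3, -0.11 to 0.26 for PFKFB3, -0.37 to 0.14 for PDK1, -0.23 to 0.10 for EPAS1, -0.057 to 0.039 for VEGFA, -0.025 to 0.19 for NDRG1, -0.28 to 0.054 for P4HA2 and -0.070 to 0.00039 for KDM3A. The differences in share ranged from -0.051 to 0.23 points for ENO1, -0.28 to 6.37 for PFKFB3 and -3.25 to 3.40 for HIF1A. ADM, HK1, PFKP, P4HA1, CA9 and PKLR kept their sign in all 16 other settings, and so did 13 further members. The 6 named genes were picked for their difference in these libraries, and each setting refits the same libraries or a part of them. Their kept signs are therefore a description and not separate support.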
